A study of Mus musculus with 3 samples.

Results

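The cells described here are the type 1 conventional dendritic cells of mouse femoral arteries, marked by the chemokine receptor gene Xcr1 and the C-type lectin gene Clec9a. Members were chosen by their own transcript counts. A barcode was a member when at least 2 of the 3 genes Xcr1, Clec9a and Tlr3 were detected, with at least 5 UMIs of H2-Ab1, a gene of MHC class II. Members also had no UMI of Cd79a (B cells) or Cd3e (T cells), at most 1 UMI of C1qa (macrophages) and at most 2 of the 5 mature dendritic genes Ccr7, Fscn1, Ccl22, Il4i1 and Cacnb3. A UMI (unique molecular identifier) stands for 1 captured transcript. The rule found 229 cells among 30135 kept barcodes, namely 68 in the Sham library, 86 in the D2 library and 75 in the D7 library. In the deposited feature table's symbols and the GENCODE vM21 annotation of GRCm38, the marker genes are Xcr1 (ENSMUSG00000060509, chr9:123852315-123862029, minus strand), Clec9a (ENSMUSG00000046080, chr6:129408862-129424763, plus strand) and Tlr3 (ENSMUSG00000031639, chr8:45395665-45411080, minus strand).

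Type 1 dendritic cells take up dead cells and present their antigens on MHC class I to CD8 T cells, a process called cross-presentation. Clec9a binds actin filaments exposed by dead cells, Xcr1 binds the chemokine Xcl1, and Tlr3 senses double-stranded RNA in endosomes. Their development depends on the transcription factors Irf8, Batf3 and Id2 and on the growth factor receptor Flt3. Type 2 dendritic cells, the larger population in most tissues, are marked in mice by Cd209a, Sirpa and Itgam.

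Femoral arteries of wild-type (WT) male mice, 8 weeks old, were studied by droplet single-cell RNA sequencing (Chromium Single Cell 3' v3). The Sham group had a sham operation, and the D2 and D7 groups had a wire injury of the artery and were taken 2 and 7 days after it. No genetic change or further treatment is named, and when the sham arteries were taken is not stated in the labels. Live single cells were sorted with the dye DAPI, and those of 6 mice were pooled into 1 library per group, so that mice cannot be told apart within a library. A single pooled library stands for each group, cells of a pool are not replicates, and no p-value is given for any difference. The intervals below are exact 95% intervals for counting error only, and they are too narrow wherever a few cells hold most of a gene's UMIs.

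The members were deep cells, with a median of 14244.5 UMIs in Sham, 16911 in D2 and 14066 in D7, against 4140, 7056 and 6864 over all kept barcodes. No member barcode occurred in another library, although the libraries shared 20 (D2 and Sham), 17 (D7 and Sham) and 27 (D7 and D2) kept barcodes. The doublet caller Scrublet marked no Sham barcode at all and so did not work there. It marked 4.11% of D2 and 2.03% of D7 barcodes, among them 2 D2 members and 1 D7 member, which were kept.

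Among defining markers of other classes that the rule did not use, Cd3d and Gata3 had no UMI in any library (Cd79a and Cd3e were set to 0 by the rule). The 10 genes of the T, natural killer and innate lymphoid list summed to 4.06, 1.35 and 4.61 CPM in Sham, D2 and D7. CPM is the count per 1000000 UMIs of the summed cells, and values given in threes below keep this order of libraries. The 7 fibroblast genes summed to 438, 7.40 and 2001 CPM, the 8 neutrophil genes to 78.2, 848 and 589.8 CPM and the 7 endothelial genes to 129.96, 30.3 and 157 CPM. Cells with 20 or more UMIs over one of these lists numbered 4 in Sham (3 fibroblast, 1 endothelial), 5 in D2 (4 neutrophil, 1 endothelial) and 8 in D7, where 4, 3 and 2 cells passed on the fibroblast, neutrophil and endothelial genes. Without these mixed cells the sums were 70.4, 7.88 and 186 CPM for fibroblast, 79.1, 186 and 85.1 CPM for neutrophil and 23.8, 15.8 and 8.62 CPM for endothelial genes. The part of other cells' RNA in the gene results was not tested beyond leaving these cells out. The 13 monocyte and macrophage genes summed to 1536, 659 and 917 CPM. Lyz2 held most of this in Sham and D7, while in D2 the other genes of the list together held more than Lyz2. C1qa, C1qb and C1qc each stayed at or below 10.1 CPM (C1qa was limited by the rule). Csf1r, the receptor of the macrophage growth factor, had 0, 6.06 and 7.37 CPM. Siglech, a marker of plasmacytoid dendritic cells, had 0, 8.75 and 0.922 CPM, but the 10 plasmacytoid list genes summed to 249, 442 and 388 CPM. The 7 B cell genes summed to 77.2, 74.7 and 75.6 CPM.

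All 3 marker genes were detected in 37 Sham, 34 D2 and 41 D7 members, and exactly 2 in the other 31, 52 and 34. Clec9a was present in all but 1 member of each library. Xcr1 was detected in 82.4%, 61.6% and 86.7% of members and Tlr3 in 73.5%, 79.1% and 69.3%. Just outside the marker threshold lay 78 Sham, 88 D2 and 75 D7 cells that had 1 of the 3 genes and met every other condition. Their Cd209a level was 1128 CPM in Sham, 447 CPM in D2 and 413 CPM in D7, against 30.5, 4.04 and 10.1 CPM in the members, and their Irf8 level was 169, 413 and 437 CPM, against 977, 1085 and 908 CPM. The cells just outside thus held Cd209a and Irf8 transcripts, both at levels between those of the members and of the Cd209a type 2 gate described below. The H2-Ab1 threshold hardly mattered, since the lowest members had 14, 16 and 9 UMIs. With 1 UMI of C1qa 6, 11 and 8 members lay just inside that limit, and 5, 6 and 3 otherwise matching cells lay just outside it. Members with 2 mature genes numbered 3, 1 and 3, and a single D7 cell was left out for having 3 or more.

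Type 1 dendritic cells made up a smaller part of the gated dendritic cells in both injured libraries, with the lowest share in D2. Their share of all kept barcodes was also lower in both, within counting error. Of kept barcodes they were 0.913% in Sham (0.709% to 1.16%), 0.7496% in D2 (0.60% to 0.925%) and 0.669% in D7 (0.527% to 0.838%). The ratio was 0.821 for D2 over Sham (0.591 to 1.15) and 0.733 for D7 over Sham (0.521 to 1.03), and both intervals include 1. Of the dendritic cells counted by the type 1, Cd209a type 2 and mature gates together they were 29.6% (23.7% to 35.9%), 14.0% (11.3% to 17.0%) and 20.9% (16.9% to 25.5%). That ratio was 0.473 for D2 over Sham (0.340 to 0.660), 0.709 for D7 over Sham (0.503 to 0.999) and 1.498 for D7 over D2 (1.08 to 2.07). The D2 value went with a larger type 2 gate, which held 2.11%, 3.97% and 2.02% of kept barcodes, and with a mature gate of 5, 73 and 57 cells. Shares rest on 1 pool of mice each, and the number of cells per artery was not measured. With the rule applied to cells thinned to 2000 UMIs, which left 20, 21 and 17 members, the ratios over kept barcodes became 0.484 for D2 over Sham and 0.412 for D7 over Sham. Requiring all 3 markers changed the D7 over D2 ratio from 0.892 to 1.23 over kept barcodes and from 1.498 to 2.10 over gated dendritic cells.

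**Figure D1:**
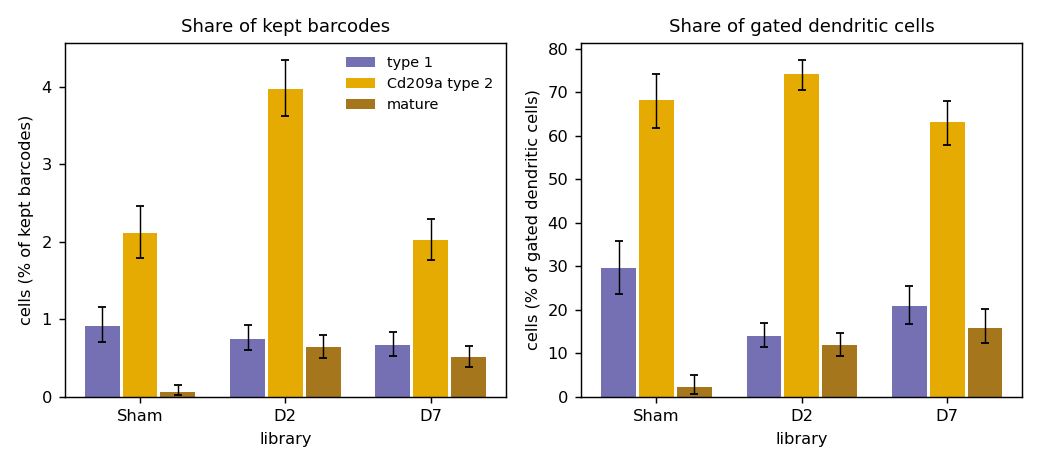
Share of cells in the type 1, Cd209a type 2 and mature dendritic gates, as a percentage of kept barcodes (left) and of the gated dendritic cells (right), with exact 95% counting intervals, 1 library per group. Type 1 cells were 29.6%, 14.0% and 20.9% of the gated dendritic cells in Sham, D2 and D7.

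The label was checked on genes outside the rule, against the Cd209a type 2 gate of the same library (157, 456 and 226 cells). Cells of that gate had at least 2 UMIs of Cd209a and none of the 3 markers, so these genes are no finding, and as both gates were set on transcripts all differences are descriptions. Of the 27 genes of a list for the type 1 programme, 17 of 18 measured were at least 1.5-fold higher in the members in Sham, 19 of 21 in D2 and 20 of 22 in D7. Among all genes measured 12.3%, 15.9% and 14.4% were that much higher. The list's median difference was 2.57, 2.99 and 2.95 on the log2 scale, and that of all genes -0.01, 0.08 and 0.02. A gene counts as measured with at least 50 CPM and 10 UMIs on the higher side, and folds for calls use CPM + 10. On these genes, which the rule did not use, the label held in each library.

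Irf8, the transcription factor on which the lineage depends (chr8:120736358-120756694), stood at 977, 1085 and 908 CPM in the members and at 12.8, 36.0 and 55.1 CPM in type 2 cells. That is 76.4-fold (51.5 to 119) in Sham, 30.1-fold (26.0 to 35.0) in D2 and 16.5-fold (13.7 to 19.9) in D7. Wdfy4, which cross-presentation of cell-bound antigens needs, stood at 887, 1667 and 1192 CPM against 139, 165 and 98.6 CPM. Batf3, the partner factor of Irf8, was only 1.70-fold higher in Sham (156 against 92.0 CPM) but 5.82-fold in D2 and 7.18-fold in D7, with members at 238 and 194 CPM. Markers named for these cells in lymphoid organs and skin were low, with Cd8a at 2.03, 6.73 and 2.76 CPM and Cd207 at 10.2, 0 and 0 CPM.

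By at least 2-fold in CPM + 10, with 50 CPM, 20 UMIs and a UMI in 10% of cells on the higher side, 505 of 3308 genes (15.3%) lay apart between the 2 dendritic types in Sham, 644 of 3529 (18.2%) in D2 and 567 of 3491 (16.2%) in D7. Higher in the type 1 cells were 6.2% (Sham), 7.4% (D2) and 7.39% (D7) of genes, and lower were 9.07%, 10.9% and 8.85%. In all 3 libraries 104 genes were higher and 124 lower in the type 1 cells. Beside Clec9a and Irf8, the genes highest over type 2 cells by the smallest of the 3 ratios included Ifi205, Cadm1, Rab7b, Tbc1d8, Ccser1, P2ry14, Lrrk2, Wdfy4, Ppt1, Lrrc1, Trim35 and Cst3. Cst3, which encodes the protease inhibitor cystatin C, reached 18925, 11085 and 12769 CPM against 3221, 2254 and 2407 CPM, the highest levels of the group. Rab7b, a small GTPase of late endosomes, had 396, 364 and 387 CPM against 25.6, 8.19 and 30.7 CPM. Ppt1, a lysosomal thioesterase, had 536, 492 and 513 CPM against 34.2, 76.5 and 56.4 CPM. These 2 genes differed little between the 3 libraries within the members. P2ry14, the receptor of UDP-glucose, had 108, 267 and 202 CPM against 8.18, 9.93 and 11.2 CPM.

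The genes lowest against type 2 cells, beside Cd209a, were Cybb, Tmem176a, Clec10a, Pltp, Tmem176b, Mgl2, S100a4, Itgam and Slamf9. Cybb encodes the membrane subunit of the phagocyte NADPH oxidase, and it had 7.11, 11.4 and 10.1 CPM in the members against 365, 314 and 269 CPM, with 1 cell holding 85.7%, 82.4% and 63.6% of the members' few UMIs. Cyba, the oxidase's other membrane subunit, was at 702, 812 and 724 CPM against 834, 1124 and 1069 CPM. Zeb2, a transcription factor of type 2 dendritic cells and macrophages, had 68.0, 63.3 and 103 CPM against 1342, 711 and 842 CPM, and Irf4 had 8.12, 6.73 and 1.84 CPM against 164, 55.0 and 50.2 CPM. S100a4 was 8.01-fold, 19.9-fold and 33.0-fold lower in the members.

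**Figure D2:**
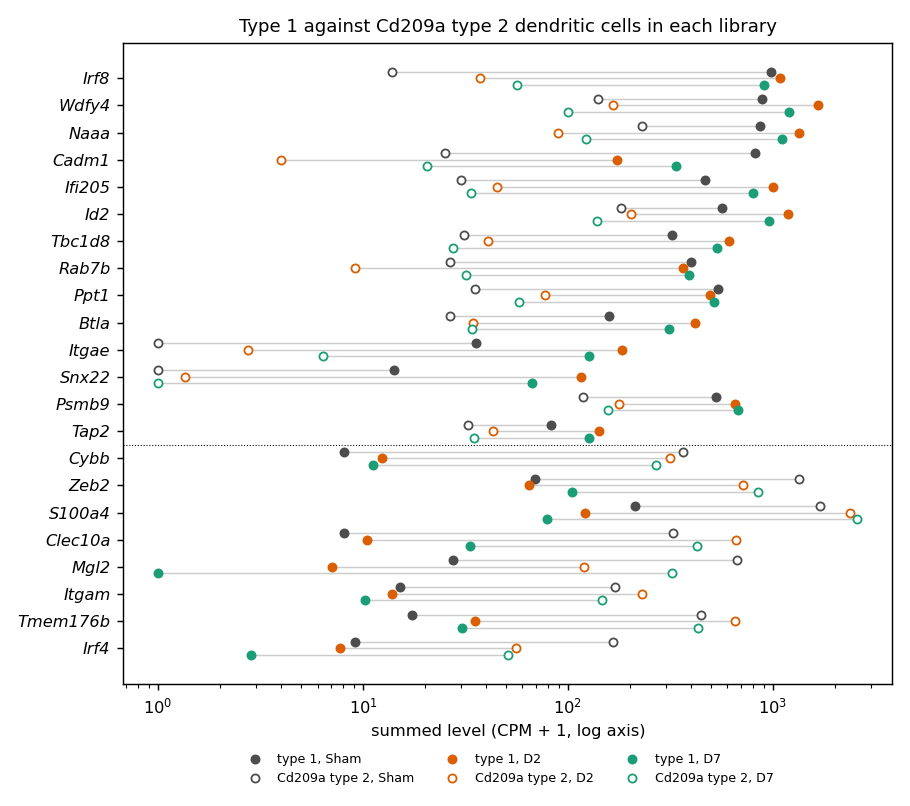
Summed level (CPM + 1, log axis) in type 1 (filled) and Cd209a type 2 dendritic cells (open) of each library, genes above the dotted line being higher and those below it lower in type 1 cells. Filled points lie to the right of open ones for all 14 upper genes and to the left for all 8 lower genes in each library.

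Within MHC class I processing, genes of the proteasome and the peptide transporter were higher in type 1 cells, while the presenting chains named below were lower. Of 17 list genes 6 of 15 measured were at least 1.5-fold higher in the members in Sham, 8 of 14 in D2 and 7 of 14 in D7, and 0, 2 and 2 that much lower. Over all genes measured 12.3%, 15.9% and 14.4% were higher and 17.4%, 18% and 16.5% lower. Psmb9, an immunoproteasome subunit, had 525, 654 and 673 CPM against 118, 177 and 155 CPM, and Psmb8, another, 737, 1158 and 984 CPM against 298, 432 and 412 CPM. The proteasome activator genes Psme1 and Psme2 were 2.40-fold and 2.09-fold higher in Sham, 3.22-fold and 2.99-fold in D2 and 2.45-fold and 2.26-fold in D7. Tap1 and Tap2, which carry peptides into the endoplasmic reticulum, lay between 1.97-fold (Tap1 in D2) and 3.71-fold (Tap2 in D7) higher. In contrast H2-K1, a class I heavy chain, had 654, 621 and 601 CPM in the members against 810.1, 1288 and 927 CPM, and B2m, its light chain, 1001, 916 and 822 CPM against 1121, 1500.3 and 1254 CPM. Of 12 genes of cross-presentation, 8 were measured, of which 2, 3 and 2 were higher and 2 lower in each library, with medians of -0.09, -0.23 and -0.21. Rab43, a GTPase of this list, had 386, 525 and 437 CPM against 226, 197 and 148 CPM. Havcr2 (TIM-3, a receptor for dying cells and a checkpoint molecule) had 217, 150.1 and 259 CPM against 25.04, 26.1 and 47.7 CPM, and Cxcr3, a chemokine receptor, 36.6, 38.4 and 44.2 CPM against 2.56, 0.697 and 1.66 CPM.

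Between libraries, the members of D2 stood furthest from those of Sham. D2 and Sham members lay apart, by the same size rule, in 386 of 3378 genes (11.4%), of which 178 were higher (5.27%) and 208 lower (6.16%) in D2. D7 and Sham members lay apart in 224 of 3262 genes (6.87%), 127 higher (3.89%) and 97 lower (2.97%) in D7, a split that edgeR's TMM scaling of the sums turned into 90 higher and 120 lower. Between D7 and D2 the count was 72 of 3302 genes (2.18%), 57 higher (1.73%) and 15 lower (0.454%) in D7. TMM scaling moved the median of all genes by -0.10 (log2) for D7 over Sham and by -0.07 for D2 over Sham, and the genes named below kept their direction under it. D2 over Sham and D7 over Sham share the Sham cells, so their values are given side by side and were not compared as independent results. In summed bulk of few cells, a gene held by fewer cells and a gene with less RNA per cell give the same CPM, and cannot be told apart from CPM alone.

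Ifitm1, which encodes an interferon-induced membrane protein that restricts virus entry (chr7:140967221-140969825, plus strand), ranked first among genes higher in D2 and in D7 than in Sham. It had 1 UMI in all Sham members (1.02 CPM), 1909 CPM in D2 and 441 CPM in D7. The ratios to that 1 UMI were 1880.4-fold (337 to 74297) in D2 and 435-fold (77.7 to 17209) in D7, with intervals as wide as 1 UMI makes them. 63 of 86 D2 cells and 31 of 75 D7 cells had a UMI, and in D7 a single cell held 29.4% of the UMIs. Among cells thinned to 2000 UMIs, 0%, 52.3% and 18.7% of members had an Ifitm1 UMI, against 0%, 9.70% and 4.19% of B cells (median depths before thinning 4313, 4721 and 3656 UMIs). Both injured libraries exceeded their B cell share. Type 2 cells carried more of it, at 38.3, 5079 and 2904 CPM. Its neighbours on chromosome 7, Ifitm2 and Ifitm3, had 373, 2920.2 and 1719.7 CPM and 255, 1721 and 715 CPM in the members. These paralogs can share reads, so each single value is uncertain.

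Plac8, a small cysteine-rich protein gene, had 84.3, 1138 and 481 CPM, which is 13.5-fold (10.8 to 17.0) in D2 and 5.71-fold (4.52 to 7.29) in D7. Cldnd1, a claudin-domain gene, had 59.9, 649.6 and 280.2 CPM, 10.8-fold (8.33 to 14.4) in D2 and 4.68-fold (3.53 to 6.29) in D7. In type 2 cells Cldnd1 lay at 92.0, 85.3 and 80.4 CPM, well below the members of D2 and D7. The difference was one of many cells, since the thinned share of members with a Cldnd1 UMI was 11.8%, 69.8% and 41.3%, against 6.39%, 6.67% and 5.92% of B cells. Tmem173, which encodes the DNA-sensing adaptor STING, had 22.3, 226 and 121 CPM, 10.1-fold (6.58 to 16.4) in D2 and 5.41-fold (3.42 to 8.92) in D7. Flot1, a membrane scaffold gene, had 11.2, 163 and 113 CPM, and Gpr171, a G protein-coupled receptor gene, 41.6, 345 and 253 CPM. Wfdc17 had 71.1, 701 and 411 CPM, while type 2 cells held 1053, 1452 and 1219 CPM, and Spon1 had 1.02, 157 and 24.9 CPM. In Sham 1 cell held 40.0% of the members' Wfdc17 UMIs. Of 16 genes for sensing nucleic acids, 3 of 6 measured were higher and none lower in D2 (18.4% and 11.8% of all genes), and likewise in D7 (12.8% and 8.30%), with medians of 1.03 and 0.66. For the named genes of this group D2 was the highest library and D7 lay between.

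Also named as higher in D7 than in Sham were Isg15 (12.2, 112 and 175 CPM), Plscr1 (18.3, 147 and 142 CPM) and the chemokine gene Ccl4 (34.5, 144 and 238 CPM). In CPM, D7 was close to or above D2 for these 3 genes. For Isg15 that level rests on few cells, since 3 cells held 67.9% of the D7 UMIs and fewer D7 than D2 members had a UMI (20 of 75 against 33 of 86). For Ccl4 3 cells held 56.6% of the D7 UMIs, and 1 cell 55.9% of those of Sham. Plscr1 was spread more evenly, in 63 D7 and 75 D2 members. Ccl4 was also high in the whole libraries, at 262, 853 and 468 CPM over all barcodes, and the part of free RNA in it was not tested.

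**Figure D3:**
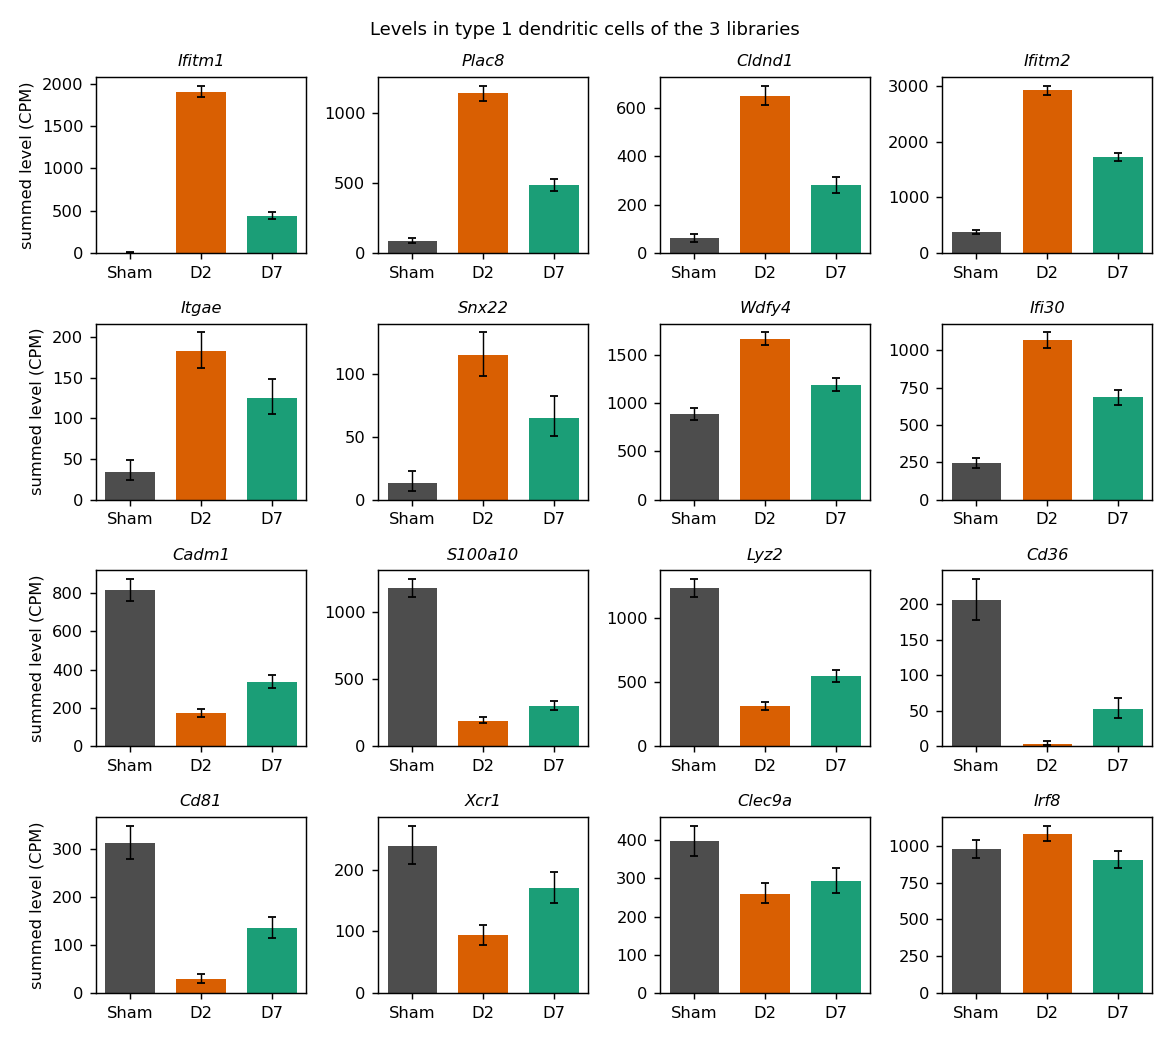
Summed level (CPM, linear axes from 0) of 16 genes in the type 1 dendritic cells of each library, with exact 95% Poisson intervals for counting error, 1 library per group. Ifitm1, Plac8, Cldnd1 and Ifitm2 were highest in D2, Cadm1, S100a10, Lyz2, Cd36, Cd81, Xcr1 and Clec9a were highest in Sham, and Irf8 differed little.

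Within the members, genes of the type 1 programme list went in different directions after injury. Whether cells lost the programme was not tested, since the rule required type 1 marker genes and left out cells without them. Of 22 measured list genes 11 were at least 1.5-fold higher and 4 lower in D2 than in Sham (18.4% and 11.8% of all genes), with a median log2 difference of 0.60 beside 0.18 for all genes. In D7 7 of 21 were higher and 2 lower than in Sham (12.8% and 8.30% of all genes), with medians of 0.36 and 0.12. Irf8 differed by 1.11-fold in D2 and 0.929-fold in D7. Id2, which favours dendritic over other lineages, had 563, 1189.5 and 951 CPM, Batf3 156, 238 and 194 CPM, and Flt3, the receptor of the dendritic cell growth factor, 156, 324 and 268 CPM. Wdfy4 was 1.88-fold (1.74 to 2.03) higher in D2 and 1.34-fold (1.23 to 1.46) in D7. Btla, an inhibitory receptor, had 157, 417 and 311 CPM and Gcsam 76.1, 232 and 114 CPM. Each of these 6 genes was highest in D2 and lowest in Sham. The summed level of all 27 list genes was highest in Sham, at 26163, 20932 and 21047 CPM. Most of that sum in each library was Cst3, named above for its high level in type 1 cells and itself highest in Sham. The order of the sums thus mainly describes this 1 gene and not the list as a set.

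Integrin alpha E (Itgae, CD103) and the adhesion molecule Cadm1, both used as markers of type 1 cells, went opposite ways. Itgae (chr11:73090583-73147446, plus strand) had 34.5, 183 and 125 CPM, 5.30-fold (3.70 to 7.82) higher in D2 and 3.63-fold (2.48 to 5.46) in D7. Cadm1 (chr9:47530173-47857637, plus strand) had 816, 173 and 337 CPM, 4.72-fold (4.09 to 5.45) lower in D2 and 2.42-fold (2.14 to 2.75) in D7. The thinned shares of members with a UMI were 7.35%, 19.8% and 22.7% for Itgae and 73.5%, 16.3% and 32.0% for Cadm1, and at most 0.606% of B cells had a UMI of either gene in any library. In type 2 cells Itgae was at 0, 1.74 and 5.39 CPM and Cadm1 at 24.0, 2.96 and 19.5 CPM. Snx22, a sorting nexin, followed Itgae with 13.2, 115 and 65.4 CPM, and Plet1 had 5.08, 69.3 and 66.4 CPM, with 31.9% of its D7 UMIs in 1 cell. Of the genes in the rule, Xcr1 had 239.6, 93.6 and 170.5 CPM, Clec9a 397, 259.8 and 294 CPM and Tlr3 131, 128 and 91.2 CPM. As they chose the members, these levels are a description only.

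Among genes lower after injury, Cd36, a scavenger receptor, had 205, 3.37 and 52.5 CPM, 60.9-fold (25.7 to 189.7) lower in D2 and 3.90-fold (2.90 to 5.33) in D7. It was detected in 57 Sham, 4 D2 and 17 D7 members. S100a10, the partner of annexin A2, had 1176, 191 and 299 CPM and a UMI in all 68 Sham members, and was 6.15-fold lower in D2 and 3.94-fold in D7. Lyz2, the lysozyme gene, had 1235, 312 and 547 CPM, and the tetraspanin gene Cd81 313, 28.9 and 135 CPM. Lyz2 is abundant in the libraries as a whole, at 2081, 6145 and 2809.9 CPM, which is highest in D2, where the members' level was lowest. Dnase1l3, a secreted DNase, had 126 CPM in Sham, no UMI in D2 and 35.0 CPM in D7. Against 3 UMIs over the D2 members, that was at least 62.3-fold lower in D2 than in Sham. Its D7 value rests on 8 cells, 1 of which held 55.3% of the UMIs. In Sham 75% of members had no Dnase1l3 UMI, so the Sham level rests on a part of the cells as well.

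Pdlim1 (163, 4.71 and 16.6 CPM), Qpct, a glutaminyl cyclase (123, 3.37 and 5.53 CPM), and Entpd1, the ectonucleotidase CD39 (192, 14.1 and 24.9 CPM), were low in both injured libraries. In type 2 cells the same 3 genes had 196, 12.7 and 22.4 CPM, 53.2, 7.31 and 7.46 CPM and 291, 59.2 and 89.5 CPM, in each case also lower in D2 and D7 than in Sham. Serpinb6b, a protease inhibitor gene with 107, 0.673 and 8.29 CPM, and Rtl8b with 108, 16.2 and 23.0 CPM were hardly present in type 2 cells (1.02, 1.92 and 7.46 CPM and 5.62, 3.66 and 3.73 CPM). In Sham 73.5% of members had no Serpinb6b UMI, and the cells highest in Dnase1l3 also held Serpinb6b. Aff3 (176, 26.3 and 38.7 CPM) and Gas7 (185, 20.2 and 46.1 CPM) were likewise highest in Sham. Of the transcription factors outside the programme list, Rbpj, which mediates Notch signals, had 721, 232 and 371 CPM and Klf4 242, 56.5 and 114 CPM, both lowest in D2, whereas Zfp366 (53.8, 129.9 and 117 CPM) and Mycl (27.4, 70.0 and 45.2 CPM) were lowest in Sham. The list of 14 genes for uptake of dead cells had 5 of 7 measured genes lower and 1 higher in D2 than in Sham (11.8% and 18.4% of all genes), and 4 lower and 1 higher of 7 in D7 (8.30% and 12.8%). Leaving out Clec9a, a rule gene, 4 of 6 were lower in D2. The other lower members were Cd36, Dnase1l3, Timd4, a phosphatidylserine receptor (158, 57.2 and 40.6 CPM), and Itgav (128, 52.5 and 73.7 CPM), while Syk, the kinase that signals below Clec9a, was higher at 46.7, 266 and 137 CPM.

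**Figure D4:**
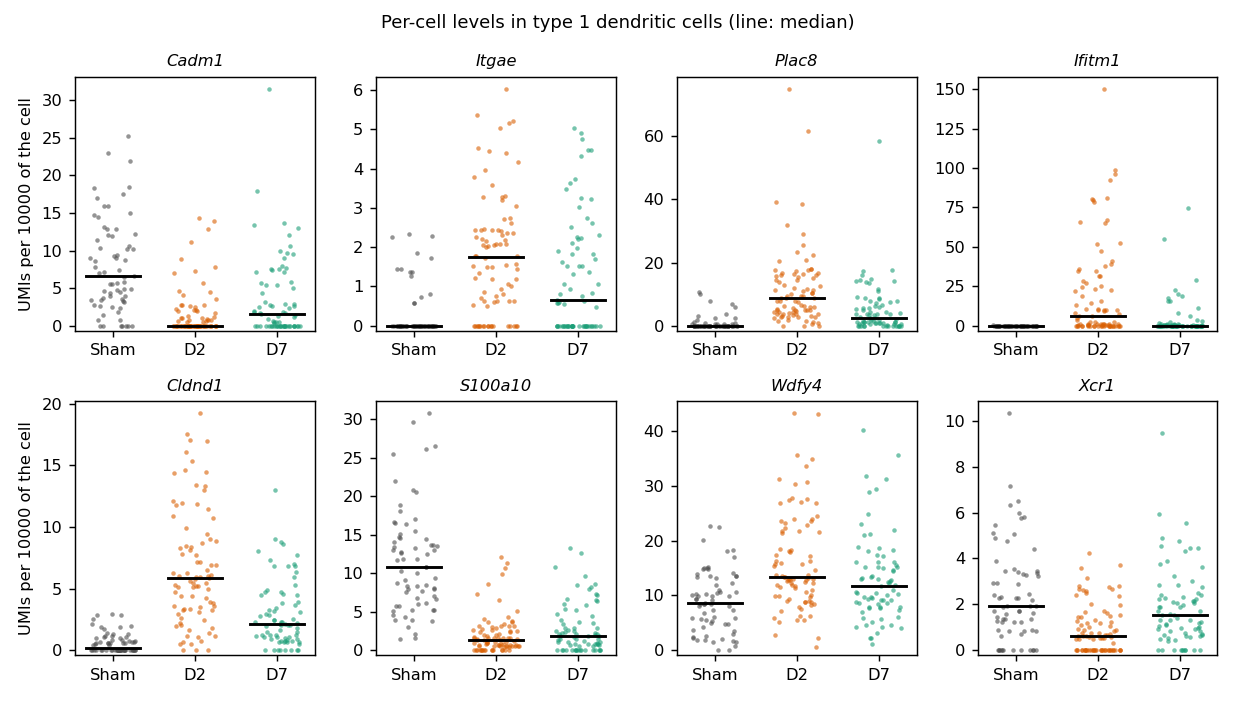
Level of 8 genes in each type 1 dendritic cell (UMIs per 10000 of the cell), 1 point per cell and a line at the median of each library. The Cadm1 medians were 6.55, 0 and 1.53 and the Cldnd1 medians 0.216, 5.81 and 2.16 in Sham, D2 and D7, while 3 cells held 59.5% of the Ifitm1 UMIs of D7.

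Members varied within each library as well. The median Cadm1 level was 6.55, 0 and 1.53 UMIs per 10000, and 10.3%, 57.0% and 37.3% of members had none. Members without an Xcr1 UMI were 12 of 68 in Sham, 33 of 86 in D2 and 10 of 75 in D7, at median depths of 13544.5, 16147 and 13323.5 UMIs, close to the 14552.5, 18024 and 14197 of those with one. In the members without Xcr1, Cadm1 was at 274, 77.5 and 13.8 CPM, against 928, 228 and 387 CPM in those with Xcr1. Plac8 ran the other way, at 268, 1423 and 668 CPM without and 46.5, 975 and 452 CPM with Xcr1. Wdfy4 lay closer together, at 910.2, 1529.5 and 1123 CPM without and 883, 1747 and 1202 CPM with it. All 30 Cd209a UMIs of the Sham members, from 3 cells, lay in the members without Xcr1 (178 CPM). In D2 Cd209a was at 7.38 CPM without and 2.12 CPM with Xcr1, and in D7 at 0 and 11.7 CPM. These are values of 10 to 65 cells each, in a split on a rule gene chosen after the data were seen.

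To place the D7 cells, the 178 genes higher and the 208 genes lower in D2 than in Sham were summed in each cell. The higher set made up a median of 1.32% (quartiles 1.15% and 1.46%) of a cell's UMIs in Sham, 4.55% (quartiles 4.04% and 5.42%) in D2 and 3.20% (quartiles 2.47% and 3.99%) in D7. For the lower set these were 8.30% (quartiles 6.85% and 9.92%), 2.66% (quartiles 2.34% and 3.25%) and 4.11% (quartiles 3.23% and 5.53%). The separation of Sham from D2 follows from the choice of genes. Genes chosen as extreme between 2 libraries also favour a place between them for any other library, so the place of D7 is a description. In the higher set 51 of 75 D7 cells lay above every Sham cell and 33 lay below every D2 cell. In the lower set 51 D7 cells lay below every Sham cell and 0 above every D2 cell, the highest D2 cell having 26.9%. Of the 86 D2 cells, 86 lay beyond every Sham cell in the higher and 81 in the lower set. On the Sham side of the nearer D2 quartile lay 57 D7 cells in the higher and 56 in the lower set. Type 2 cells followed the same 2 sets, with medians of 1.95%, 4.74% and 3.79% for the higher and 10.2%, 4.30% and 5.65% for the lower set, so type 2 cells of D7 lay between as well. A library effect and an effect of injury cannot be told apart here.

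**Figure D5:**
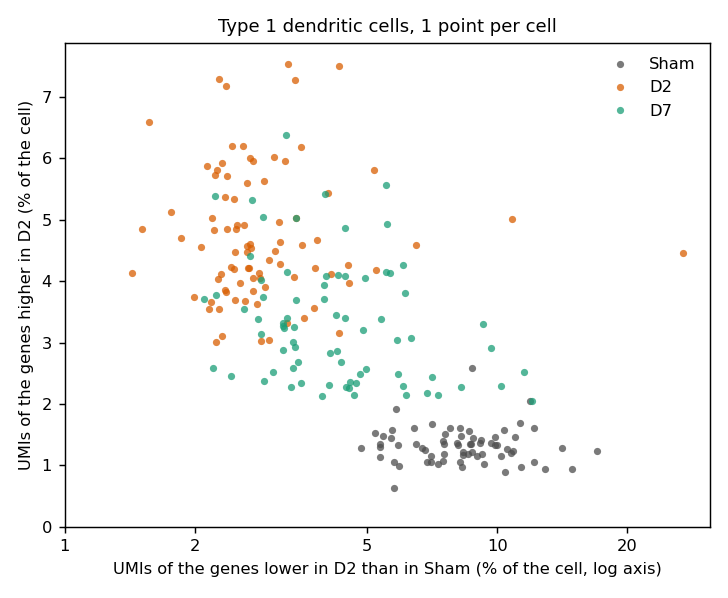
Share of each type 1 dendritic cell's UMIs in the 208 genes lower in D2 than in Sham (x, log axis) and in the 178 genes higher in D2 (y), 1 point per cell. The D7 cells lie mostly between, with medians of 3.20% on the y axis and 4.11% on the x axis.

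The genes named as higher in D7 than in D2 included the following. Cdkn1a, a cell cycle inhibitor, had 265, 28.3 and 178 CPM, Gadd45b, a stress response gene, 283, 39.0 and 211 CPM, and Bcl2a1d, a survival gene, 542, 92.2 and 318 CPM. Tnfaip3, a brake on NF-kB, had 302, 53.2 and 160.4 CPM and the adhesion gene Icam1 251, 38.4 and 117 CPM. In all of these Sham was the highest library and D2 the lowest. Bhlhe40 (74.1, 44.4 and 144 CPM) was highest in D7, and Nr4a3 had 160.4, 60.6 and 164 CPM, with Sham and D7 close together. Bcl2a1d has near-identical copies, so its own value is uncertain. Lower in D7 than in D2 were, beside Ifitm1, Ifitm3, Spon1, Plac8 and Cldnd1, the genes Ccnd3 (86.3, 220.1 and 98.6 CPM), Slfn5 (87.3, 437 and 202 CPM) and Myo1f (91.4, 151 and 69.1 CPM).

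A list of 22 early response genes, which cell isolation is known to induce, also differed between the libraries. Of 19 measured, 12 were lower and 3 higher in D2 than in Sham (11.8% and 18.4% of all genes), with a median of -0.93, and in D7 7 of 18 were lower and 1 higher (8.30% and 12.8%), with a median of -0.50. Against D2, 4 of 18 were higher and 2 lower in D7 (5.77% and 4.14% of all genes). Nfkbia had 912, 275 and 685 CPM, Fosb 573, 189 and 335 CPM and Jund 1002, 459 and 680.1 CPM, while Fos had 1626, 1136 and 1136 CPM. In type 2 cells Nfkbia stayed at 1498, 1473 and 1505 CPM, but the list as a whole was lower in both injured libraries there too. All 22 genes summed to 13941, 12030 and 10388 CPM in type 2 cells and to 10144, 6306 and 8066 CPM in the members. The part of cell isolation in the lower genes of D2 was not tested.

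More interferon-induced genes were higher than lower after injury. Of 25 list genes, 7 of 10 measured were higher and 2 lower in D2 than in Sham (18.4% and 11.8% of all genes), with a median of 1.08. In D7 5 of 9 were higher and 2 lower (12.8% and 8.30%), with a median of 1.18. All 25 list genes summed to 993, 2835 and 1721 CPM, with medians of 7, 36.5 and 10 UMIs per cell. By that median the typical D7 member lay nearer to Sham than to D2. The highest single cells held 149, 247 and 257 UMIs. Beside Isg15 and Ifitm3, the higher ones included Irf7, the factor that amplifies type I interferon (20.3, 92.2 and 118 CPM), Bst2, also called tetherin (109.7, 288 and 262 CPM), and Zbp1, a nucleic acid sensor (20.3, 71.4 and 64.5 CPM). For Irf7 1 cell held 30.5% of the D7 UMIs. The lower ones were Iigp1, a GTPase induced by interferon gamma, with 61.9 CPM in Sham and no UMI in D2 or D7, and Irf1 with 135, 39.0 and 54.4 CPM. Iigp1 was at least 30.7-fold lower in D2 and at least 22.4-fold lower in D7, against 3 UMIs over each group. Gbp2, another gene of that kind below the level for the count, had 40.6, 4.04 and 2.76 CPM. The receptors Ifnar1, Ifnar2, Ifngr1 and Ifngr2 were all detected, from 78.2 CPM (Ifnar1 in Sham) to 423 CPM (Ifngr1 in D2), and none differed by 2-fold between libraries. No member had a UMI of Ifnb1, Ifnl2 or Ifnl3, which allows at most 3.05, 2.02 and 2.76 CPM.

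In the MHC class II list the processing genes differed more than the presenting chains. Of 14 measured genes 6 were higher and none lower in D2 than in Sham (18.4% and 11.8% of all genes), with a median of 0.49. In D7 4 of 13 were higher and none lower (12.8% and 8.30%), with a median of 0.24. Ifi30, the lysosomal thiol reductase GILT, had 243, 1068 and 685 CPM, 4.40-fold (3.84 to 5.07) in D2 and 2.82-fold (2.44 to 3.28) in D7. Ctss, the cathepsin that trims the invariant chain, had 282, 811 and 532 CPM, Lgmn 11.2, 74.7 and 47.0 CPM, and Ciita, the master regulator of the class II genes, 138, 304 and 165 CPM. H2-Aa had 7835, 9004 and 7989 CPM, H2-Eb1 7261, 8117 and 7533 CPM and Cd74, the invariant chain, 15537, 14678 and 11668 CPM. Lgmn and Ctss were also much higher in the whole D2 library than in Sham (1206 against 138 CPM and 1503 against 237 CPM), and the part of free RNA was not tested. For class I, 4 of 14 measured genes were higher and none lower in D2, beside 18.4% and 11.8% of all genes, and none passed either way in D7. The 4 were Psmb8, Tap2, Tapbp and Calr, at 1.57-fold, 1.72-fold, 1.84-fold and 1.65-fold, and H2-K1 had 654, 621 and 601 CPM.

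More costimulatory genes were lower than higher in D2, and D7 was near level with Sham. Of 21 list genes, 2 of 11 measured were higher and 5 lower in D2 than in Sham (18.4% and 11.8% of all genes), with a median of -0.51. In D7 2 of 10 were higher and 3 lower (12.8% and 8.30%), with a median of 0.0028. Cd83 had 842, 412 and 558 CPM, Cd86 438, 324 and 458 CPM and Cd40 59.9, 16.2 and 34.1 CPM, and the 20 genes of the mature programme held, beside the same shares of all genes, 7 lower and no higher among 11 measured in D2 (median -0.83) and 3 lower and 1 higher among 11 in D7 (median -0.20). Per cell, without scaling for depth, the medians were 28, 32.5 and 30 UMIs for the costimulatory list. The mature programme summed to 2420, 1230 and 1923 CPM, but its medians per cell were 18, 16.5 and 17 UMIs. Its highest single cells held 252, 100 and 155 UMIs. The rule caps the mature markers, so cells that had matured further were counted in the mature gate and not here.

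Every member held some transcript of the 28 cytokine and chemokine genes, with medians of 11, 24.5 and 23 UMIs per cell, but several of these genes lay in few members. Il12b, the shared subunit of interleukin 12 and 23, had 253 CPM in Sham from 12 cells, 1 of which held 62.2% of the UMIs, no UMI in D2 and 27.6 CPM in D7 from 6 cells. Il12a, the other interleukin 12 subunit, had no UMI in any member. Cxcl9, a T cell attractant, had 292, 2.69 and 171 CPM from 12, 4 and 6 cells, with 51.0% of the Sham and 47.8% of the D7 UMIs in 1 cell. Ccl22, a rule gene, had 76.1, 0 and 4.61 CPM. Of the 12 Il12b cells in Sham 5 also had Cxcl9, 8 had Ccl22 and 3 had Ccr7. Il1b was broader, in 39, 81 and 67 members at 987, 1096 and 1782 CPM, about 2.58-fold, 2.51-fold and 2.53-fold below type 2 cells. Whole-library Il1b was 534, 4707 and 2485 CPM, and 1.88%, 19.4% and 12.9% of thinned B cells had a UMI of it, against 38.2%, 66.3% and 64.0% of thinned members.

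Receptors for growth and migration passed the 1.5-fold limit about as often as genes in general. Of 14 measured in the list of 26 genes, 2 were higher and 1 lower in D2 than in Sham (18.4% and 11.8% of all genes), and 2 higher and 2 lower in D7 (12.8% and 8.30%). Csf2ra, the receptor of GM-CSF, had 99.5, 79.4 and 99.5 CPM, Ccr2 221, 158 and 209 CPM, Kit 146, 152 and 144 CPM and Gpr183, which guides dendritic cells by oxysterols, 133, 118 and 124 CPM. Itga4 was lowest in D7, at 404, 290.1 and 236 CPM. Il1rl1, the receptor of interleukin 33, the cytokine in the study's title, had 3.05, 0 and 1.84 CPM in the members, all of it in 1 cell per library where present, and 91.0, 4.70 and 6.63 CPM in type 2 cells.

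A few members of every library held most of the transcripts of the G2/M phase of the cell cycle. Over 15 G2/M genes, such as Mki67 and Top2a, at least 10 UMIs were found in 5 of 68 Sham (7.35%, 2.43% to 16.3%), 5 of 86 D2 (5.81%, 1.91% to 13.0%) and 6 of 75 D7 members (8.00%, 2.99% to 16.6%). These cells held 75.1%, 75.5% and 86.2% of the members' UMIs of these genes. In the type 2 gate the shares were 8.28%, 0.658% and 2.65%, and in the B cell gate 0%, 0% and 0.287%. Among cells thinned to 2000 UMIs, 2 or more such UMIs were found in 8.82%, 5.81% and 9.33% of members, 10.2%, 1.76% and 3.98% of type 2 cells and 4.14%, 2.73% and 2.60% of B cells. The members' intervals overlapped between libraries. Before thinning, the D2 interval of type 2 cells (0.136% to 1.91%) ended just below the start of that of the deeper D2 members (1.91% to 13.0%). After thinning to equal depth these 2 intervals overlapped, at 0.764% to 3.44% for type 2 cells and 1.91% to 13.0% for members. Glycolysis genes stayed near level as a list, with medians of 0.18 in D2 and 0.13 in D7, although Ldha, the lactate dehydrogenase gene, had 239.6, 562 and 463 CPM.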

How the data were processed

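Single-cell RNA was measured in 3 libraries, 1 per group, each from the pooled cells of 6 mice. The deposited values are whole-number UMI counts per gene and barcode, with 32285 genes. The version of Cell Ranger is 7.1.0 per the file headers and 7.2.0 per the submitters' processing notes, which also list Seurat 5.0.1 and the mm10 build, and the filters behind the deposited barcodes are not given in the sources used here. Members and gene lists were chosen with earlier results of these data known.

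Barcodes with at least 300 genes and at most 15% mitochondrial UMIs were kept, 7451 of 7757 in Sham, 11473 of 11690 in D2 and 11211 of 11574 in D7. UMIs of the cells in a gate were summed per library and scaled to CPM. Members' sums held 984947, 1485504 and 1085067 UMIs. The B cell gate used for comparison took cells with 3 or more UMIs of Cd79a. Intervals are exact 95% Poisson intervals for CPM, conditional binomial intervals for ratios and Clopper-Pearson intervals for shares. Genes were named as the 8 highest and 8 lowest of each pair of libraries by the ratio of CPM + 10, and the 15 highest and 10 lowest against type 2 cells, with at least 100 CPM, 20 UMIs and a UMI in 20% of cells on the higher side and a level there of at least 0.5 of the whole library's CPM. Further genes come from the lists. A gene that met the rule is not reported here. For shares of cells with a UMI each cell was thinned to 2000 UMIs. Doublets were called with Scrublet (scanpy 1.11.5) and left in. The calls were tested on simulated data with changes larger than 2-fold and no spread between cells beyond depth and counting error. That test cannot show how the calls fare where few cells hold most of a gene's UMIs. Alternatives covered the member rule, barcode filters, doublets, dividing and mixed cells, scaling (TMM of edgeR 4.0.16), pseudocount, low counts, summing and thinning depth. Computation used Python 3.11.15, numpy 2.4.6, scipy 1.17.1, pandas 2.3.3 and matplotlib 3.10.9.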

Additional observations from a re-analysis of the deposited data

Results flagged for a closer look

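For 3 named genes the D7 over Sham difference had opposite signs in type 1 and in Cd209a type 2 dendritic cells, and the difference between the types was not tested. Dusp2, a phosphatase of MAP kinases, had 274, 20.9 and 121 CPM in type 1 and 102, 157 and 202 CPM in type 2 cells of Sham, D2 and D7, a log2 ratio of -1.12 against 0.93 for D7 over Sham. S100a4, a calcium-binding protein gene, had 212, 119.8 and 78.3 CPM against 1700.5, 2388 and 2586 CPM, a log2 ratio of -1.33 against 0.60. Serpinb6b had 107, 0.673 and 8.29 CPM against 1.02, 1.92 and 7.46 CPM, a log2 ratio of -2.67 against 0.66, where the type 2 levels are close to their floor. In Sham 73.5% of type 1 cells had no UMI of it. These log2 ratios are of CPM + 10.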

How the results depend on the processing

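No paired analysis was possible because each group is 1 library. Share ratios were recomputed under 8 alternatives. Over kept barcodes D2 over Sham ran from 0.484 to 0.837, D7 over Sham from 0.412 to 0.738 and D7 over D2 from 0.846 to 1.23. Over gated dendritic cells these were 0.325 to 0.539, 0.659 to 0.758 and 1.41 to 2.10. Requiring all 3 markers gave 1.23 for D7 over D2 among kept barcodes, and 0.325 for D2 over Sham and 2.10 for D7 over D2 among gated dendritic cells. The rule on thinned cells gave the lowest ratios among kept barcodes, 0.484 and 0.412, from 20, 21 and 17 members, too few in D7 for a comparison of genes. The cause was not tested. Counts of genes apart stayed within 1.5 times the main count, at 378 to 494 for D2 over Sham, 210 to 290 for D7 over Sham and 61 to 101 for D7 over D2. Of 2919 values of named genes under the alternatives 173 moved and 0 reversed.

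Of 1616 list medians 70 moved and 10 reversed, and 9 of the reversed ones are lists of other cell types. With all 3 markers the cytokine list became -0.20 for D7 over D2, and the endothelial list against type 2 cells became -1.03 in Sham and -0.65 in D7. That Sham value was -0.42 with C1qa at 0 and -0.25 with the rule on thinned cells. Without the mixed cells, an alternative added after the data were seen, the endothelial list was -0.54 for D7 over Sham, and against type 2 cells -0.093 in Sham and -0.25 in D7, while in D7 the neutrophil list was -0.22 and the fibroblast list 0.013. Leaving out cells with 5 or more cell cycle UMIs left 11, 13 and 17 members and was not run. A limit of 10 G2/M UMIs, also added after the data were seen, took its place.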
